A study of Rattus norvegicus with 36 samples.

Results

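The comparison concerns mammary cancers that arose after PhIP and carried no H-ras mutation (3 arrays) and mammary cancers that arose in untreated rats (3 arrays), out of 36 arrays in all. The arrays were taken by their labels: those of PhIP cancers whose H-ras status is given as nonmutated (replicates 2, 3 and 4), and those of spontaneous cancers (replicates 1, 2 and 3). The spontaneous cancers are labelled H-ras nonmutated as well. All animals were female Sprague-Dawley rats, an outbred stock that readily forms mammary tumours, and all ate a high-fat diet with 23.5% corn oil from 9 weeks of age. PhIP was given by gavage as its hydrochloride at 40 mg/kg per day, 5 days a week for 2 weeks, beginning at 7 weeks of age, and the spontaneous cancers came from rats given neither chemical nor radiation. A second pair of groups served to set the same chemical against another control. These were 4 nonmutated cancers after 1 Gy of radiation at 7 weeks of age followed 3 days later by the same course of PhIP, and 4 nonmutated cancers after 1 Gy alone. The other groups, used only to place levels, were cancers after methylnitrosourea (MNU, a DNA-alkylating carcinogen) at 40 mg/kg, injected at 7 weeks of age, of which 5 were H-ras mutated and 4 nonmutated, cancers after 1 Gy at 7 weeks of age and the same MNU dose 3 days later, again 5 mutated and 4 nonmutated, and normal mammary tissue of untreated rats (3). The single PhIP cancer with an H-ras mutation (replicate 1) is given beside the others as a value and entered no comparison. Whether the cancers of a group are from separate rats is not stated in the labels, so p-values measure the spread between these samples. No batch or hybridisation date is given.

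PhIP is a heterocyclic amine that forms when meat is cooked at high heat. Cytochrome P450 enzymes of the Cyp1 family hydroxylate its amino group, acetyltransferases and sulfotransferases make the product reactive, and the reactive form binds to guanine in DNA, while glutathione transferases detoxify it. PhIP and related planar amines can also bind the Ah receptor, a ligand-activated factor that pairs with Arnt and turns on Cyp1 genes. In rats PhIP causes cancers of the mammary gland, colon and prostate, and mammary cancers without an H-ras mutation lack the oncogenic change for which chemically induced rat mammary tumours are best known.

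The arrays measured 1 intensity per probe set, in arbitrary units of brightness, and levels below are log2(intensity + 42.8), so that a difference of 1 is a doubling of that sum. In the 6 cancers the epithelial markers Krt8, Krt18, Krt19, Epcam and Cdh1 and the luminal regulator Gata3 lay between the 95.5th and the 99.7th percentile of all genes. Correlations between arrays ran from 0.959 to 0.968 among the spontaneous cancers, from 0.916 to 0.959 among the PhIP cancers and from 0.922 to 0.968 between the groups.

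Some arrays stood apart. PhIP cancer 2 had far lower levels of stromal genes than the other 5. The mean of 17 fibroblast and matrix genes was 8.87 on its array, against 11.27 and 11.34 in PhIP cancers 3 and 4, 11.11 to 11.41 in the spontaneous cancers and 9.95 or more in every cancer of the groups treated with radiation or MNU. Lum, the collagen-binding proteoglycan lumican, measured 6.45 there and at least 12.08 in the other 5 cancers, and Dcn, decorin, measured 7.18 there and at least 11.66 in the others. The cell cycle genes of the same cancer had a mean level of 10.58, the highest of the 6, while PhIP cancer 4 had the lowest, 8.95. Spontaneous cancer 1 had the most signal from skeletal muscle genes, with a list mean of 9.996 against 7.06 to 8.76 in the other 5. The groups also differed in their brightest signals: the mean log2 intensity of the 100 brightest probe sets, called the signal ceiling here, was 13.28 to 13.44 in the spontaneous cancers and 13.63 to 13.68 in the PhIP cancers. Of the other 30 arrays, 25 lay above the highest spontaneous value. The median difference between the groups was −0.06 in the dimmest and 0.10 in the brightest of 10 equal groups of genes ordered by level, and −0.005 and −0.007 in the same groups after quantile normalization. With the signal ceiling as a covariate these medians were −0.13 and 0.08.

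The promoters of 2 genes are shown because they bear on the question of an Ah receptor target. Vsnl1 is the only gene past the threshold below, and Cyp1b1 is the Ah receptor target and PhIP-oxidising enzyme that was measured. Each runs from 250 bases before to 50 bases after the transcription start given by RefSeq on the GRCr8 build, in the direction of the gene. Capitals mark the core of the Ah receptor element, GCGTG, or its reverse complement, CACGC. Vsnl1 lies on the minus strand (chr6:39878507-39878806) and Cyp1b1 on the plus strand (chr6:21094315-21094614).
Vsnl1: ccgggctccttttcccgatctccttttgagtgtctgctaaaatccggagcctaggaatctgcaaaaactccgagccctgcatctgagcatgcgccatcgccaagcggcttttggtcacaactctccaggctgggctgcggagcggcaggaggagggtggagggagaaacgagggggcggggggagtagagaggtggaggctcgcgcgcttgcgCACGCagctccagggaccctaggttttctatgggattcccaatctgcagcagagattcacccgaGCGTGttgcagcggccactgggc
Cyp1b1: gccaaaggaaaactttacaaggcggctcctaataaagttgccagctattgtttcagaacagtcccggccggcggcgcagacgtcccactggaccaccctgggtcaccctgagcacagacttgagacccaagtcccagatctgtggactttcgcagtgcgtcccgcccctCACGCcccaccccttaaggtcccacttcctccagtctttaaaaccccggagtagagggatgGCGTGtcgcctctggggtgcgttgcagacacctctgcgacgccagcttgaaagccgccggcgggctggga
Each window held 2 matches. In Vsnl1 they begin 37 bases before and 28 bases after the start, and in Cyp1b1 81 and 20 bases before it. Of 33469 promoters of this length, 29.7% held at least 1 match on either strand and 10.2% held 2 or more, so that the letters alone set neither gene apart. Of the 24 genes named below, 20 had a promoter in the table and 11 of these held a match.

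One gene separated the groups past the threshold. Vsnl1, which encodes visinin-like 1, a calcium sensor of the neuronal family, was higher in spontaneous than in PhIP cancers, and in the latter it was near its level in normal mammary tissue. It measured 9.15, 11.42 and 8.82 in spontaneous cancers 1, 2 and 3 and 7.04, 6.99 and 6.82 in PhIP cancers 2, 3 and 4. Every spontaneous cancer lay above every PhIP cancer, and spontaneous cancer 2 was far above the other 2. The means were 9.80 ± 1.42 (SD, n = 3) and 6.95 ± 0.11 (SD, n = 3), a log2 fold change of −2.85 ± 0.44 (SE) and a 7.20-fold higher level in spontaneous cancers (limma adjusted p = 0.00534). A second, dimmer probe set of the gene gave −1.53 ± 0.29. No other gene passed, so that 1 of 11772 genes was called (0.00849%), lower in PhIP cancers, and none was called higher. An unadjusted p under 0.05 was reached by 633 genes (5.38%), 246 higher (2.09%) and 387 lower (3.29%). The median standard error of a gene's difference was 0.21.

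The Vsnl1 call rested on more than its own 2 groups. With only the 6 arrays of the comparison in the fit, the difference was the same and the adjusted p was 0.404. With the signal ceiling as a covariate the difference was −2.60 and the adjusted p 0.15. Without spontaneous cancer 2 the difference was −2.04 (limma adjusted p = 0.0713), and without PhIP cancer 4 it was −2.78 (0.0707), so that no gene was called in either case. Without spontaneous cancer 3 it was −3.34, and 3 genes were called: Vsnl1, the hormone gene Stc1 and Adam3a, a metalloprotease-like gene named only because it passed there.

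**Figure D1:**
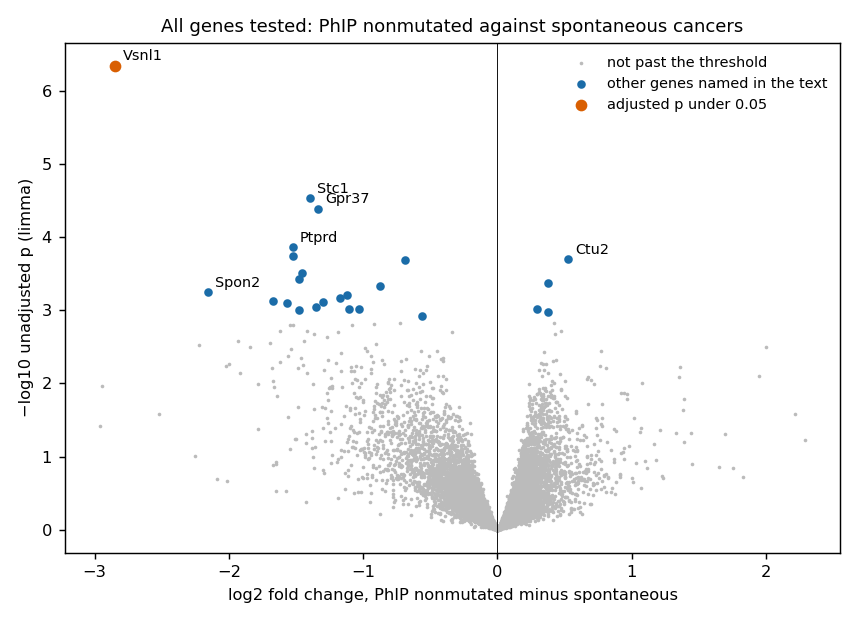
Each point is 1 of 11772 genes, with the log2 fold change of PhIP nonmutated over spontaneous cancers on the x axis and −log10 of the unadjusted limma p on the y axis. Vsnl1, at −2.85, is the only point past an adjusted p of 0.05, and the points of smallest p lie mostly on the left, 20 of 24 being lower in PhIP cancers.

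Over all groups, Vsnl1 had its highest mean in the spontaneous cancers. All 27 cancers outside the 2 groups lay below the lowest spontaneous cancer. Group means were 6.82 ± 0.19 (SD, n = 4) after radiation, 6.93 ± 0.46 (SD, n = 4) after radiation and PhIP, 6.89 ± 0.40 (SD, n = 5) and 7.69 ± 0.20 (SD, n = 4) after MNU with and without H-ras mutation, and 6.83 ± 0.37 (SD, n = 5) and 7.66 ± 0.82 (SD, n = 4) after radiation and MNU with and without it. The PhIP cancer with a mutation measured 6.74, and normal tissue 7.01 ± 0.30 (SD, n = 3). Because these means are set against the same 3 spontaneous arrays, they are a description of the order of the groups and were not tested. The lowest means, those of the 5 groups from 6.82 to 6.95, lay within each other's spread.

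**Figure D2:**
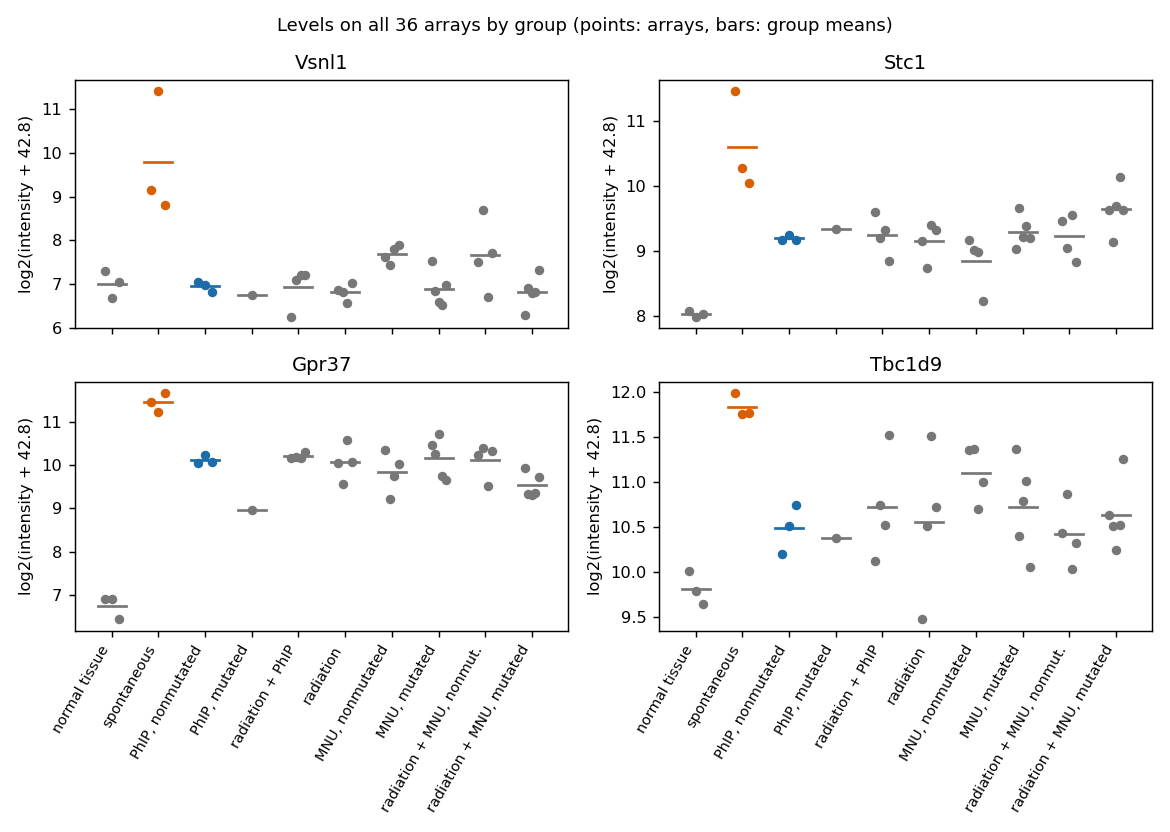
Levels of 4 genes, as log2(intensity + 42.8), on the 36 arrays by group, where points are arrays and bars are group means. The 3 spontaneous cancers (orange) lie above the 3 PhIP nonmutated cancers (blue) in all 4 panels, and for Vsnl1, Gpr37 and Tbc1d9 above all 27 other cancers as well, while the PhIP nonmutated means lie within the range of the other treated groups.

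Of the 24 genes with the smallest p, 20 had lower and 4 had higher values in PhIP cancers, and 23 of the 24 (Vsnl1 aside) did not pass the threshold, with adjusted p from 0.159 to 0.594. The lower genes included 5 for secreted and matrix proteins. Stc1, the secreted glycoprotein hormone stanniocalcin, measured 11.46, 10.27 and 10.04 in the spontaneous cancers and 9.16, 9.25 and 9.17 in the PhIP cancers. All 3 PhIP cancers were below all spontaneous ones, by −1.40 ± 0.28 (limma adjusted p = 0.159), and the gene's other probe sets gave −1.72 ± 0.45 and −1.58 ± 0.34. Without spontaneous cancer 3 Stc1 passed (−1.67, adjusted p = 0.0226), and without spontaneous cancer 1 it was at −0.96 (0.83). Spon2, spondin 2, a matrix protein that takes part in innate immunity, measured 10.39, 11.00 and 10.64 against 8.01, 8.95 and 8.60 (−2.16 ± 0.56). Edil3, a matrix protein that binds integrins, measured 7.48, 8.08 and 9.62 against 6.21, 6.77 and 7.19, its highest value being spontaneous cancer 3 (a difference of −1.67, and −1.06 without that cancer). Ifnk, interferon kappa, measured 8.19, 9.71 and 8.07 against 7.01, 7.34 and 6.92, with spontaneous cancer 2 highest (−1.57, and −1.04 without it). The probe set of Obp3, an odorant-binding lipocalin, can bind several members of its family and gave 8.48, 9.05 and 8.82 against 7.84, 7.19 and 6.95.

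Receptors and other membrane proteins formed the next group. Gpr37, an orphan receptor of the nervous system, measured 11.47, 11.23 and 11.67 in the spontaneous and 10.05, 10.24 and 10.08 in the PhIP cancers. Its spread within each group was small, 0.22 and 0.10 (SD), and the difference was −1.33 ± 0.28 (limma adjusted p = 0.159). In normal tissue Gpr37 measured 6.75, below every one of these cancers. Ptprd, a receptor tyrosine phosphatase, measured 9.17, 9.92 and 9.76 against 8.10, 8.09 and 8.08 (−1.52 ± 0.35, limma adjusted p = 0.342). Its other probe sets differed, at −0.96 ± 0.38 and, for one too dim to pass the filter, 0.41 ± 0.31. Antxr1, a collagen-binding receptor also used by anthrax toxin, measured 9.84, 10.42 and 10.07 against 8.75, 8.99 and 9.24. The immune receptors in this group were Gpr34, a lysophospholipid receptor of macrophages and microglia (−1.03 ± 0.28), Clec9a, by which dendritic cells take up dead cells (−1.48 ± 0.40), and Ifngr2, a chain of the interferon gamma receptor (−0.56 ± 0.16). For each of these 3 the PhIP cancers lay below all spontaneous cancers. Clec9a and Gpr34 are dim, and their differences moved with the added constant, to −0.84 and −0.66 when it was 125.8. With a constant of 16 that of Clec9a was −2.03.

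Enzymes that modify sugars made up another 3 of the 24. Chst8, which adds sulfate to N-acetylgalactosamine, as on pituitary hormones, measured 8.81, 9.38 and 8.92 in the spontaneous and 7.56, 7.25 and 7.72 in the PhIP cancers (−1.53 ± 0.36, limma adjusted p = 0.342). St6galnac3, a sialyltransferase, differed by −1.10 ± 0.30 without overlap. B4galt5, a galactosyltransferase that makes lactosylceramide, measured 10.56, 11.08 and 10.01 against 8.45, 9.55 and 10.14. It was the only one of the 24 whose groups overlapped, and the 24 were chosen by p on these same arrays. Over all genes 7.35% lay apart on the higher and 8.49% on the lower side. PhIP cancer 2 was lowest for B4galt5, and without it the B4galt5 difference was −0.71 in place of −1.18.

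The remaining lower genes act inside the cell. Tbc1d9, a Rab GTPase-activating protein that is abundant in oestrogen receptor-positive breast cancer, measured 11.98, 11.75 and 11.77 in the spontaneous and 10.19, 10.51 and 10.74 in the PhIP cancers (−1.35 ± 0.37). Pstpip2, which shapes actin in macrophages, measured 7.60, 7.41 and 7.21 against 5.93, 5.95 and 5.91, a difference of −1.48 that was −0.81 with a constant of 125.8. Limd2, a LIM domain protein, differed by −0.87 ± 0.22, Kctd4, of the potassium channel tetramerisation family, by −1.30 ± 0.35, and the deubiquitinase Usp49 by −0.69 ± 0.16 (−0.42 with that constant). The 4 other probe sets of Usp49 were too dim to pass the filter and gave values from −0.13 to 0.19.

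The 4 higher genes differed by less, with little spread. Ctu2, which takes part in the thiolation of transfer RNA, measured 7.71, 7.51 and 7.45 in the spontaneous and 8.11, 8.10 and 8.04 in the PhIP cancers (0.53 ± 0.12, limma adjusted p = 0.342). Ptges3, the Hsp90 cochaperone p23, measured 12.37, 12.42 and 12.41 against 12.87, 12.79 and 12.66 (0.37 ± 0.09). Actr2, a subunit of the Arp2/3 complex that nucleates actin, differed by 0.29 ± 0.08 and Sypl1, a vesicle membrane protein, by 0.37 ± 0.10. Ptges3, Actr2 and Sypl1 are among the brightest genes, where the median difference over all genes was 0.10, and after quantile normalization they differed by 0.20, 0.13 and 0.23 (limma adjusted p = 0.999 each).

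**Figure D3:**
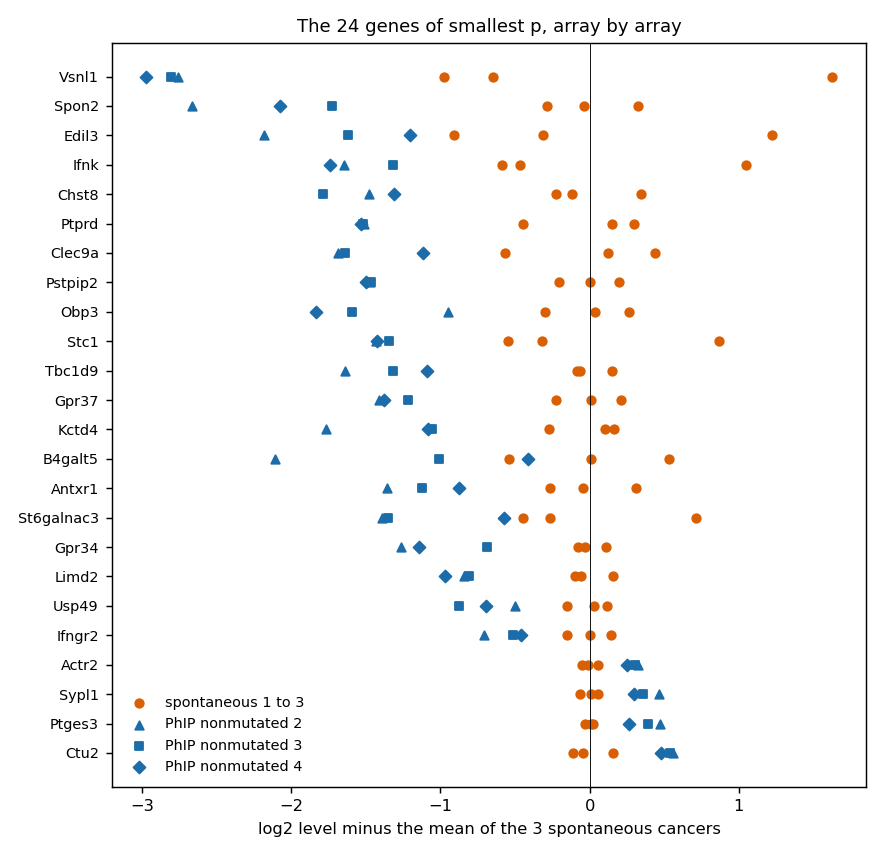
The 24 genes of smallest p, with each array's log2 level minus the mean of the 3 spontaneous cancers on the x axis (circles spontaneous, triangles, squares and diamonds PhIP nonmutated 2, 3 and 4). In 23 genes the symbols of the groups do not overlap, B4galt5 being the exception. The genes were chosen by p on these same arrays, so that little overlap follows from the choice. Over all genes 7.35% lay apart on the higher and 8.49% on the lower side. The wide spread of the circles for Vsnl1, Edil3 and Ifnk contrasts with the narrow spread for Gpr37 and Tbc1d9.

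The other treated groups were used to place these levels. For 19 of the 20 lower genes the spontaneous mean was above the means of all 6 other treated groups with more than 1 array, and Ifngr2 was the exception. For all 4 higher genes it was below them all. The PhIP mean lay within the range of those 6 means for 9 of the 20, including Vsnl1, Stc1, Gpr37, Chst8, Obp3 and Tbc1d9, below it for 10, including Pstpip2, Spon2, Antxr1, Clec9a and Usp49, and above it for Ptprd. In Vsnl1, Gpr37, Ptprd and Tbc1d9 all 27 other cancers lay below the lowest spontaneous one. Pstpip2 was an example of the other kind, with a PhIP mean of 5.93 against 6.11 to 7.20 in the 6 groups and 7.49 in the PhIP cancer with a mutation. The genes were chosen by their difference between the spontaneous and PhIP arrays, so an outlying spontaneous mean follows in part from the choice. These positions are descriptions.

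Radiation with PhIP against radiation alone gave a second estimate of what PhIP cancers differ by, on 8 arrays that the first comparison does not contain. Here too the groups were barely distinct. No gene passed with limma (smallest adjusted p 0.993), 480 of 11772 (4.08%) had an unadjusted p under 0.05, and one gene at most passed without any single array (Tfpi without radiation cancer 3, Armcx2 without radiation cancer 4, both named for that reason). Of the 24 genes, 6 had the same sign here, and the largest difference was 0.65, that of Obp3, in the opposite direction. The 24 were chosen by the first comparison, so smaller values in another follow in part from the choice. Vsnl1 measured 0.12 ± 0.38 in this comparison, Stc1 0.09 ± 0.24 and Gpr37 0.14 ± 0.24. Ptprd was lower in both, at −0.51 ± 0.30 here.

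The test of the difference between the comparisons also called no gene (limma), with 701 genes (5.95%) at an unadjusted p under 0.05. Vsnl1 had the smallest p, with a difference of −2.96 and an adjusted p of 0.237, and it passed without spontaneous cancer 3 (0.023). Without radiation cancer 4 Armcx2 passed (0.00165), and without PhIP cancer 4 Lef1 passed (0.00602). With all arrays included, no gene's PhIP difference was thus shown to depend on radiation.

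**Figure D4:**
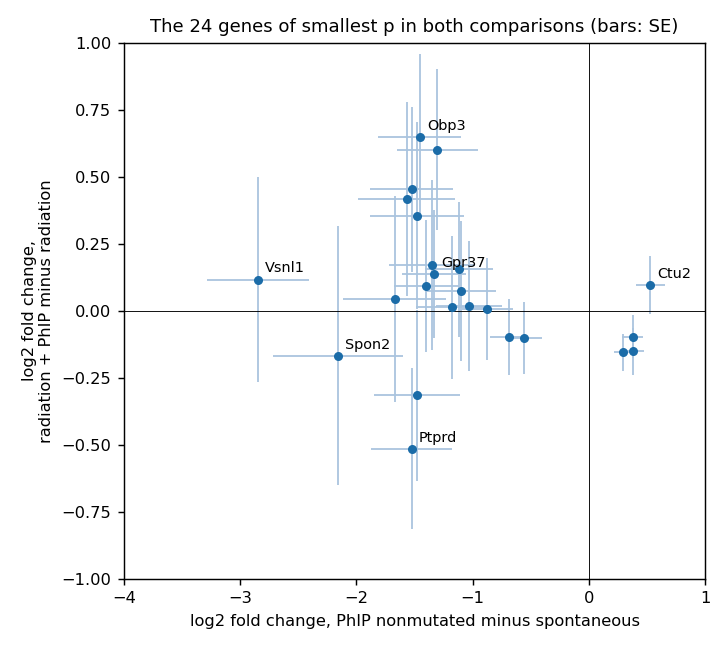
The same 24 genes, with the log2 fold change of PhIP nonmutated over spontaneous cancers on the x axis and that of radiation with PhIP over radiation alone on the y axis, and bars of 1 SE. The points spread from −2.85 to 0.53 along x and stay within 0.65 of 0 along y.

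No measured gene that handles PhIP itself passed the threshold. Of 29 genes of the Ah receptor and of carcinogen metabolism 19 were measured, with Cyp1b1 as the only Cyp1 enzyme among them. Of the 19, 8 were above and 11 below 0 with a median of −0.04, against −0.01 over all genes. The median turned to 0.11 with the signal ceiling as a covariate, to 0.03 without spontaneous cancer 2 and to 0.004 without PhIP cancer 3. The receptor Ahr measured −0.16 ± 0.21, its partner Arnt −0.44 ± 0.34, and Tiparp, a direct target that feeds back on the receptor, 0.04 ± 0.26. Cyp1b1 measured 10.10, 10.66 and 10.05 in the spontaneous cancers and 8.20, 9.43 and 9.58 in the PhIP cancers. All PhIP cancers were below, by −1.20 ± 0.74 (limma adjusted p = 0.998), and by −0.76 without PhIP cancer 2, whose stromal gene levels were lowest. The quinone reductase Nqo1, a target of both the Ah receptor and NRF2, measured −0.44 ± 0.43.

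Among the enzymes that activate or detoxify the amine, 2 glutathione transferases had the smallest p. Gstm1 measured 11.09, 10.29 and 10.25 against 9.44, 9.76 and 7.51 (−1.64 ± 0.63, limma adjusted p = 0.838). PhIP cancer 4 was lowest, and without it the Gstm1 difference was −0.95. Gsta1 measured 9.30, 10.17 and 9.70 against 11.42, 10.32 and 11.06 (1.21 ± 0.57, limma adjusted p = 0.917). Members of the transferase families are similar in sequence, so their probe sets can share signal. Gstp1 (−0.04), Gstt1 (0.05), Gstt2 (0.23), Gstm2 (−0.36) and Gsta4 (−0.37) had overlapping groups. The acetyltransferases Nat1 (−0.15 ± 0.24) and Nat2 (−0.17 ± 0.20), the sulfotransferase Sult1a1 (0.36 ± 0.27), the hydrolase Ephx1 (0.30 ± 0.37), the exporter Abcg2 (−0.01 ± 0.49) and the P450 reductase Por (0.02 ± 0.24) all had overlapping groups. The measured members ran from −1.64 to 1.21.

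DNA damage and growth lists showed small differences. Of 19 DNA repair genes 8 were above and 11 below 0, with a median of −0.01 and no member at an unadjusted p under 0.05. Ercc1, of nucleotide excision repair, measured −0.17 ± 0.11 and the mismatch repair gene Msh6 0.27 ± 0.18. Of 15 p53 targets 9 were above and 6 below 0 (median 0.08, −0.002 after quantile normalization, and 0.005 to 0.19 without single cancers), with Phlda3, an inhibitor of AKT, at −0.50 ± 0.25 (−0.31 without spontaneous cancer 2). Of 18 genes of RAS-MAPK output 8 were above and 10 below 0 (median −0.06, −0.004 without spontaneous cancer 3 and −0.23 with the ceiling covariate). The phosphatase Dusp4 measured 7.10, 6.87 and 6.92 against 8.01, 7.45 and 7.43 (0.67 ± 0.24, limma adjusted p = 0.838) and the factor Etv1 differed by 0.78 ± 0.31, both without overlap. These were the 2 members apart on the higher side, and 1 lay apart on the lower, where 7.35% and 8.49% of all genes did. In radiation with PhIP against radiation alone Etv1 had the opposite sign, −0.74. Of 27 cell cycle genes 21 were below 0 (median −0.20). That median was −0.55 without PhIP cancer 2, 0.28 without PhIP cancer 4 and 0.07 with the ceiling covariate, so that no direction held.

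Wnt signalling, which controls mammary stem cells and branching, had 16 of 20 members below 0 (median −0.23), none past the threshold, and 5 at an unadjusted p under 0.05, all lower, against 3.29% of all genes on that side. Without PhIP cancer 2 a single one was left at that p. Wnt4, the progesterone-induced ligand, measured 11.34, 11.33 and 10.92 in the spontaneous and 9.22, 10.12 and 10.13 in the PhIP cancers (−1.38 ± 0.50, limma adjusted p = 0.838). Axin2, a feedback inhibitor and common readout of the pathway, differed by −0.50 ± 0.19 and the factor Tcf7 by −0.75 ± 0.34, in both without overlap. Of the 20 members 4 lay apart on the lower and 2 on the higher side, where 8.49% and 7.35% of all genes did. Lef1, the pathway's other DNA-binding partner here, measured 9.83, 10.66 and 10.34 against 7.45, 9.27 and 10.37, so that the groups overlapped through PhIP cancer 4 (−1.25 ± 0.46, limma adjusted p = 0.838). Without PhIP cancer 2 the Lef1 difference was −0.46. After radiation it went the other way, 1.67 ± 0.40 with PhIP against without (limma adjusted p = 0.993), and the difference between the comparisons was −2.92 (limma adjusted p = 0.254). Without PhIP cancer 2 the Wnt list had 12 of 20 members below 0 and a median of −0.16, and without PhIP cancer 4 the median was −0.37. Of 16 hormone receptors and targets 7 were above and 9 below 0. Their median was −0.15, but 0.10 without spontaneous cancer 1 and 0.03 without PhIP cancer 2. The progesterone receptor Pgr measured −1.05 ± 0.61 and Igf1 −1.02 ± 0.46 (−0.57 without PhIP cancer 2), both without overlap between groups. In this list 3 members lay apart on the lower and 1 on the higher side, where 8.49% and 7.35% of all genes did.

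Genes of epithelium and of metabolism mostly had higher values in PhIP cancers. Of 15 luminal genes 14 were above 0 (median 0.31) and none passed the threshold. In 8 of the 15 all PhIP cancers lay above all spontaneous cancers, which was so for 7.35% of all genes. The adhesion molecule Epcam measured 13.23, 13.32 and 13.30 against 13.57, 13.59 and 13.54 (0.28 ± 0.12), the keratin Krt8 differed by 0.49 ± 0.22 and the epithelial factor Elf3 by 0.56 ± 0.26 (limma adjusted p from 0.871 to 0.909). The median was 0.28 to 0.36 without any single cancer, 0.16 after quantile normalization and 0.27 with the ceiling covariate. Epcam and Krt8 are among the brightest genes, where the median difference over all genes was 0.10. All 15 genes of hypoxia and glycolysis were above 0 (median 0.50, 0.24 without PhIP cancer 2 and 0.30 without spontaneous cancer 1), such as the mutase Pgam1 (0.39 ± 0.17) and the hexokinase Hk2, which measured 7.73, 7.37 and 7.84 against 9.21, 8.02 and 8.02. PhIP cancer 2 was highest, and without it the Hk2 difference was 0.37 in place of 0.77.

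Stress genes followed the same side. Of 13 heat shock and unfolded protein genes 12 were above 0 (median 0.24), with the mitochondrial chaperonins Hspe1 (0.44 ± 0.19) and Hspd1 (0.46 ± 0.20) and the stress factor Atf4 (0.36 ± 0.15) free of overlap. In 4 of the 13 all PhIP cancers lay above all spontaneous ones, which was so for 7.35% of all genes. Of 14 NRF2 and oxidative stress genes 13 were above 0 (median 0.18, and 0.11 with 3 of 14 below 0 without PhIP cancer 2), among them the thioredoxin reductase Txnrd1 (0.20 ± 0.11) and the glutathione reductase Gsr (0.46 ± 0.26, and 0.29 without PhIP cancer 2). Fatty acid synthesis had 10 of 12 above 0 (median 0.33, 0.20 without PhIP cancer 4, and −0.01 with the ceiling covariate), with the citrate lyase Acly at 0.36 ± 0.19. Cholesterol synthesis had 9 of 12 above 0 (median 0.30, 0.12 without spontaneous cancer 1, 0.45 without spontaneous cancer 3 and −0.11 without PhIP cancer 2). In radiation with PhIP against radiation alone the medians of luminal, hypoxia, heat shock and NRF2 genes were −0.04, −0.29, −0.14 and −0.15, opposite in sign to those above. With the ceiling covariate the medians of hypoxia, heat shock and NRF2 genes were 0.25, 0.17 and 0.12, the same sign as without it.

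Markers of immune cells mostly had lower values in PhIP cancers, and in bulk tissue fewer cells of a type and less RNA per cell cannot be told apart. Of 8 MHC class II genes, which present antigen to helper T cells, 6 were below and 2 above 0 (median −0.55). In 5 all PhIP cancers lay below all spontaneous ones, which was so for 8.49% of all genes. RT1-Db1, a class II beta chain, measured 11.61, 12.23 and 11.83 against 8.54, 10.91 and 10.16 (−2.02 ± 0.68, limma adjusted p = 0.838), and RT1-Da, an alpha chain, 12.72, 13.00 and 12.75 against 10.30, 12.09 and 11.73 (−1.45 ± 0.48). Their chaperone Cd74 differed by −1.28 ± 0.53 and their regulator Ciita by −0.56 ± 0.26. The members named here are all among the lower ones. PhIP cancer 2 was lowest in each. Without it the differences were −1.35 for RT1-Db1, −0.91 for RT1-Da and −0.75 for Cd74, and the list median was −0.53. The mean over the 8 genes was less distinct, 10.03 to 11.38 in spontaneous and 9.50 to 10.46 in PhIP cancers, so the groups overlapped.

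The other immune lists were similar in direction. Of 14 macrophage genes 12 were below 0 (median −0.64, and −0.37 without PhIP cancer 2), with list means of 10.42 to 10.65 against 9.53 to 10.36. In 6 of the 14 all PhIP cancers lay below all spontaneous ones, which was so for 8.49% of all genes. Aif1, a calcium-binding protein of macrophages, measured 9.71, 9.88 and 9.66 against 8.59, 9.34 and 8.34 (−0.99 ± 0.43), the complement gene C1qa differed by −0.91 ± 0.40 (−0.56 without PhIP cancer 2) and the growth factor receptor Csf1r by −0.69 ± 0.31. All 14 measured T and NK cell genes were below 0 (median −0.36, and −0.28 with 10 of 14 below 0 without PhIP cancer 2; −0.62 with the ceiling covariate), such as Cd3g, a chain of the T cell receptor complex (−1.03 ± 0.49), and Cd5 (−0.56 ± 0.26). None of these genes passed the threshold, with limma adjusted p of 0.838 or more. After radiation, PhIP cancers against those without PhIP had medians of −0.42 for class II, −0.14 for macrophage and 0.14 for T and NK cell genes.

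Stromal and other cell types depended on single cancers. Of 17 fibroblast and matrix genes 16 were below 0 (median −0.77), but 10 were above and 7 below 0 without PhIP cancer 2 (median 0.09). Lum had a difference of −1.78 with that cancer and 0.26 without it, and Pdgfra, a PDGF receptor of fibroblasts, −1.10 and 0.09. Only the mural cell receptor Pdgfrb (−0.77, and −0.49 without PhIP cancer 2) and the collagen VI gene Col6a2 (−0.97, and −0.23 without it) had PhIP cancers all below the spontaneous ones, which 8.49% of all genes had. The mesenchymal transition median was −0.41, 0.006 without PhIP cancer 2 and −0.12 with the ceiling covariate. Mast cell genes had a median of −1.16, but list means of 8.42 to 10.19 in spontaneous and 7.36 to 9.86 in PhIP cancers overlapped, and the median was 0.23 with the ceiling covariate and −1.95 to −0.62 without single cancers. Skeletal muscle genes had a median of −0.69, 0.02 without spontaneous cancer 1 and −1.62 without spontaneous cancer 2. The haemoglobin gene Hbb, a measure of blood in the tissue whose probe set can bind related globins, measured 9.34, 9.75 and 10.43 in spontaneous and 11.94, 10.76 and 12.82 in PhIP cancers. It was higher in all 3 PhIP cancers than in any spontaneous one (2.00 ± 0.62, limma adjusted p = 0.824), which was so for 7.35% of all genes. Of the 3 red blood cell genes measured 2 were above and 1 below 0, and only Hbb had groups apart. The part of Hbb in the other differences was not tested.

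Over all 35 lists, 429 of 514 genes were measured, 1 was called (Vsnl1, which stands in the basal and myoepithelial list), and 39 had an unadjusted p under 0.05, where 5.38% of all genes did. The basal and myoepithelial list had 8 of 13 members above 0 and a median of 0.10, opposite in sign to Vsnl1. In 16 lists the median kept its sign after quantile normalization, with the ceiling covariate and without any single one of the 6 cancers. These included luminal, hypoxia, heat shock and NRF2 genes on the higher side and MHC class II, macrophage, T and NK cell and Wnt genes on the lower side. In 19 lists the sign changed under at least one of these, 15 of them on leaving out a cancer.

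**Figure D5:**
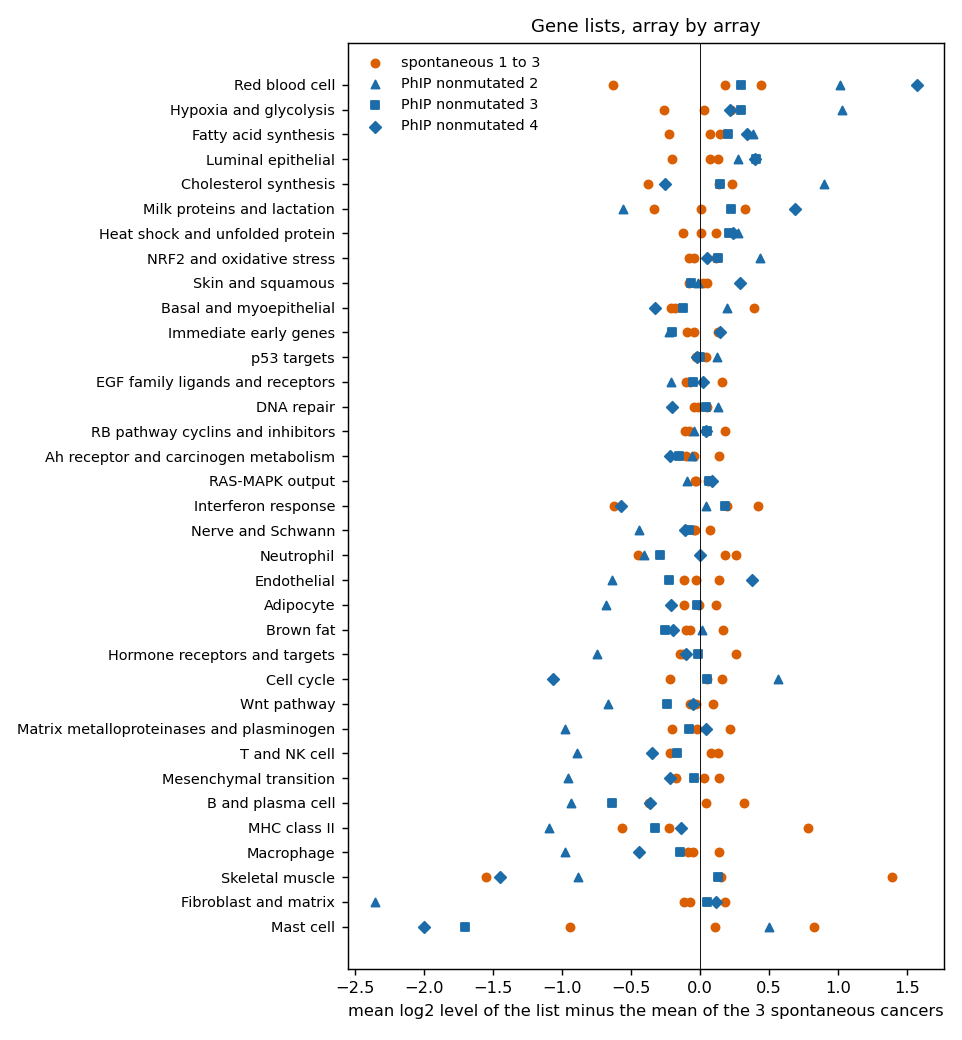
Mean log2 level of each of 35 gene lists on each array, minus the mean of the 3 spontaneous cancers (circles spontaneous, triangles, squares and diamonds PhIP nonmutated 2, 3 and 4), ordered by median difference. PhIP cancer 2 lies far to the left for fibroblast and matrix genes, at 8.87 before subtraction against 11.27 and 11.34 in the other PhIP cancers, and the groups overlap in most lists.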

How the data were processed

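Expression was measured on 36 one-colour arrays of 31099 probe sets, with cRNA from 8 µg of total RNA per the labels' protocols. The deposited values are linear intensities, 1 per probe set, scaled by the authors so that the mean after leaving out 2% at each end is the same on every array, as tested on the values. The summarisation method was not given in the sources used here.

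Intensities were transformed as log2(intensity + 42.8), the 20th percentile of all values, which understates changes of dim genes. Probe sets above 125.8 (40th percentile) on at least 3 arrays were kept, and the probe set of highest mean was taken per symbol. Of the probe sets, 20832 had 1 symbol, 436 several and 9831 none, and 20764 matched the RefSeq gene table, which left 11772 genes after removal of control probe sets. A model with 1 mean for each of 10 groups was fitted in R 4.3.3 with limma 3.58.1 (lmFit, then contrasts and eBayes; 26 residual degrees of freedom) and tested on simulated data. P-values were adjusted by Benjamini-Hochberg, with 0.05 as the threshold. The number of arrays limits the precision.

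The named genes are those past the threshold and those of smallest p up to 24, measured Ah receptor genes, and up to 3 members of each other list by p, not all of which are printed. Tcf7, Ciita, Dcn and Col6a2 lie outside this rule and were chosen after their values were seen. The members and lists were chosen with earlier results of these data known. Alternatives were the constant, the filter, normalization, probe set choice, arrays in the fit, covariates, the replicate block and leaving out each array.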

Additional observations from a re-analysis of the deposited data

Results flagged for a closer look

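For the 24 named genes in the radiation and the radiation with PhIP cancers (48 groups of 4 arrays), the highest and lowest arrays were tested for their distance from the rest, and 3 arrays lay farther out than Dixon's 95% limit. About 1 group in 20 does so by chance. All 3 were in the radiation with PhIP group. Vsnl1 measured 6.242 in replicate 1, below 7.083 to 7.203 in the others. Gpr37 measured 10.32 in replicate 4, above 10.17 to 10.18 in the others. Antxr1 measured 9.107 in replicate 1, below 9.705 to 9.811 in the others.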

How the results depend on the processing

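The main count of 1 gene became 0 with only the 6 compared arrays in the fit and 0 with the signal ceiling as a covariate, an alternative added after seeing the data. It ranged from 0 to 3 on leaving out each cancer. The counts for radiation with PhIP against radiation and for the difference between the comparisons were 0 under every setting except leaving out single arrays, where each ranged from 0 to 1. Arrays of the same number did not deviate together (r = −0.009 and −0.059 for numbers 2 and 3), while pairs of unlike number ran from −0.254 to 0.265. With so few pairs, whether arrays of a number shared a batch or date cannot be told. With the replicate block the counts were 1, 0 and 0. For Vsnl1 all 19 settings gave a lower value in PhIP cancers (−3.34 to −2.04), 15 of them past the threshold. Over the 24 named genes and all settings, 446 values kept direction and side of the threshold, 4 lost the call (all Vsnl1), 1 gained it (Stc1) and 0 reversed. Named genes that a filter at the median removes have no value there. Where a call was gained or lost, the cause was not tested, apart from fewer arrays. Signal near background limits what dim genes such as Pstpip2 and Clec9a can show.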
